A study of Drosophila melanogaster with 6 samples.

Results

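Insensitive (Insv) is a small nuclear protein of Drosophila with a BEN domain, a fold that contacts DNA directly. It is known as a corepressor that works with Suppressor of Hairless at Notch target genes during sensory organ development, and BEN proteins of this kind have also been tied to insulator proteins. On a chromosome map such a factor can appear as single sites or as stretches with many sites close together, and the left arm of chromosome 3 (3L) shows both arrangements in different places.

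The members described here are all Insv peaks on arm 3L, 2017 of the 13016 peaks in the list (15.5%), taken by chromosome name alone and with no filter on score or width. The list comes from ChIP-seq in Kc167 cells, a female line derived from embryos at a late stage, whose genotype the labels give as se/e. There were 3 ChIP samples and 3 input samples of the same cells, with no treatment named in the labels, and the ChIP used a rabbit polyclonal serum against Insv. The authors' peak caller made 1 list for the whole series, so no peak has a value per sample, replicate error cannot be computed, and the depth of the libraries is unknown. Each peak has a start and an end on release 5 (1-based) and a score whose scale the file does not name, and the score serves here only to order and describe peaks of this list.

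The span of 3L ran from the first peak at 131247 to the end of the last at 24463107, 24.3 Mb in all. On 3L, as on 2L and X, low coordinates are the telomere side. The span was cut into 3 segments of equal length. The distal segment ran from 131247 to 8241866, the middle segment from 8241867 to 16352486 and the proximal segment, which faces the centromere, from 16352487 to 24463107. Arms X, 2L and 3R served for comparison and were divided in the same way, with the distal segment of 3R at its high coordinates. A peak belonged to the part that held its midpoint. Intervals in parentheses are 95% intervals, exact Poisson for densities, exact conditional for ratios of counts or densities and exact binomial (Clopper-Pearson) for shares. Those of medians come from order statistics and those of mean peaks per region from the normal approximation over regions. They cover counting error only, and they are too narrow where peaks lie in groups. No significance test was made, because peaks of 1 list are not replicates.

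Peaks of 3L were far from evenly spread. The distal segment held 992 peaks (49.2% of those on the arm), the middle segment 370 (18.3%) and the proximal segment 655 (32.5%). Density was 122 peaks per Mb (115 to 130) in the distal segment, 45.6 (41.1 to 50.5) in the middle and 80.8 (74.7 to 87.2) in the proximal segment. The distal segment was thus 2.68 times as dense as the middle (2.38 to 3.03) and the proximal segment 1.77 times (1.56 to 2.02), and none of the 3 intervals of density overlapped another. The distal excess rested mostly on the first 4 Mb of the arm, a border chosen after the bins had been seen. Without that stretch the rest of the distal segment was 1.31 times as dense as the middle (1.11 to 1.54).

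The profile along the arm was a dense distal block, a long sparse interior and a second dense block short of the centromere. In complete 1 Mb bins, the distal segment ran from 27 peaks (6 to 7 Mb) to 239 (1 to 2 Mb), with a median of 115.5 over 8 bins. The middle segment ran from 13 peaks (10 to 11 Mb) to 87 (8 to 9 Mb), with a median of 42. The proximal segment ran from 1 peak (23 to 24 Mb) to 137 (19 to 20 Mb), with a median of 84.5. The means were 123 ± 79.1 peaks per bin in the distal segment, 46.0 ± 24.6 in the middle and 83.3 ± 47.6 in the proximal (SD, n = 8 bins each), so bins of the 3 segments overlapped even though the totals were far apart. The middle and proximal means both lay within 1 SD of the distal mean, and the sparse bins from 6 to 8 Mb belonged to the distal segment.

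**Figure D1:**
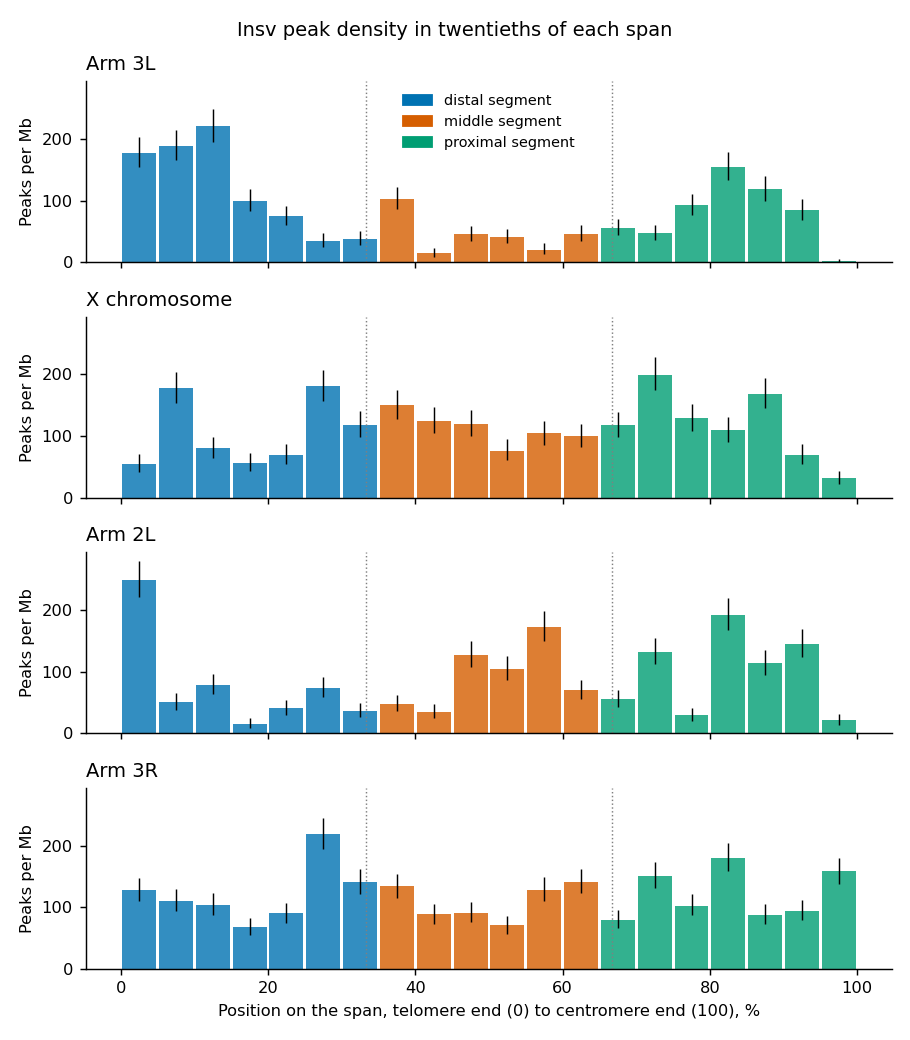
Bars give Insv peaks per Mb in twentieths of the span of each arm, from the telomere end to the centromere end, with exact Poisson 95% intervals as lines. Bars are coloured by the segment that holds their centre, and dotted lines mark the borders of the segments. On 3L the first 3 bars stand at 178, 189 and 220 peaks per Mb, and 5 of the 6 bars in the middle segment lie under 50.

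The segments of the comparison arms differed far less from each other. On X the distal, middle and proximal segments held 105, 110 and 121 peaks per Mb. On 2L they held 79.5, 90.5 and 98.3, and on 3R 119, 112 and 124. The ratio of distal to middle density was 0.95 on X (0.86 to 1.05), 0.88 on 2L (0.79 to 0.98) and 1.06 on 3R (0.97 to 1.16), all with intervals well below that of 3L. The low density of 3L as a whole, 82.9 peaks per Mb (79.3 to 86.6) against 107 (105 to 110) on X, 2L and 3R together, came with this uneven spread. By arm, density was 112 on X, 89.4 on 2L (85.6 to 93.4) and 118 on 3R. Arm 2L was thus close to 3L, with a ratio of 3L to 2L of 0.93 (0.87 to 0.99). The distal segment of 3L did not differ beyond counting error from that of 3R (ratio 1.03, 0.95 to 1.13). Its total density was higher than that of X (1.17, 1.06 to 1.29) or 2L (1.54, 1.39 to 1.70) beyond counting error, the only error these intervals cover. Complete 1 Mb bins of these distal segments overlapped, with means of 123 ± 79.1 peaks on 3L, 107 ± 51.0 on X and 77.3 ± 64.0 on 2L (SD, n = 8, 7 and 8 bins). The middle segment of 3L had 0.41 times the density of the middle of X (0.36 to 0.47), 0.50 times that of 2L (0.44 to 0.57) and 0.41 times that of 3R (0.36 to 0.46). The proximal segment had 0.67 (0.60 to 0.74), 0.82 (0.74 to 0.91) and 0.65 (0.59 to 0.72) times the density of its counterparts on X, 2L and 3R. Its longest peak-free stretch was 1299996 bp, against 611782, 631422 and 336481 bp in those counterparts. The 3 ratios were not recomputed without that stretch.

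Within arms, 2L came closest to 3L in unevenness. The 6 densest of its 22 complete bins held 49.1% of its peaks, and the 6 densest of 24 held 50.1% on 3L. The 6 densest of 22 held 39.3% on X, and the 6 densest of 27 held 32.3% on 3R. These shares depend in part on the number of bins, which was largest on 3R. Between 3L and 2L the difference lay in where the sparse bins were. In twentieths of the span, 9 of 20 parts of 3L and 7 of 20 parts of 2L had fewer than 50 peaks per Mb. Of the 6 parts centred in the middle segment, 5 were that sparse on 3L, 2 on 2L and none on X or 3R.

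Density can differ because there are more places with peaks or because each place holds more peaks. Peaks at most 5 kb apart, edge to edge, were joined into regions, of which 3L had 507, or 20.8 per Mb (19.1 to 22.7), against 21.3 (20.2 to 22.4) on X, 2L and 3R together. By this count 3L had 0.98 times the places of the other arms (0.88 to 1.08). Each region held fewer peaks, with a mean of 3.98 (3.5 to 4.46) against 5.04 (4.72 to 5.37). By arm the mean was 5.29 on X (4.70 to 5.88), 4.56 on 2L (3.97 to 5.16) and 5.19 on 3R (4.68 to 5.7). The interval of 2L overlapped that of 3L. Median region length was 2032 bp on 3L, 3641 bp on X, 2632 bp on 2L and 3449 bp on 3R. Regions covered 12.2% of the span of 3L and 16.9% of the other spans together.

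Along 3L both the number of regions and their size differed. Regions numbered 22.9 per Mb in the distal segment (19.8 to 26.5), 17.0 in the middle (14.3 to 20.1) and 22.6 in the proximal (19.4 to 26.1). The distal segment thus had 1.35 times as many regions per Mb as the middle (1.08 to 1.69), but a mean of 5.33 peaks per region (4.24 to 6.43) against 2.68 (2.15 to 3.21), 1.99 times as many. The proximal segment had 1.33 times as many regions per Mb as the middle (1.06 to 1.67) and 1.33 times as many peaks per region. Between the distal and the proximal segment the number of regions per Mb did not differ beyond counting error (ratio 1.02, 0.82 to 1.25), and the difference in density lay in region size, 5.33 against 3.58 peaks per region (3.04 to 4.12). On the other arms mean region size stayed between 4.36 and 5.74 peaks in every segment. Over the 24 complete bins of 3L, bins with more peaks had both more regions (Spearman's rho 0.84) and larger ones (rho 0.88), with peak number part of each measure. The densest bins differed in the number of regions, with 35 in the bin from 1 to 2 Mb and 21 in the bin from 3 to 4 Mb. Mean region size was 6.94 peaks in the former and 10.9 in the latter, where 1 region held 71 of the 228 peaks and raised the mean.

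**Figure D2:**
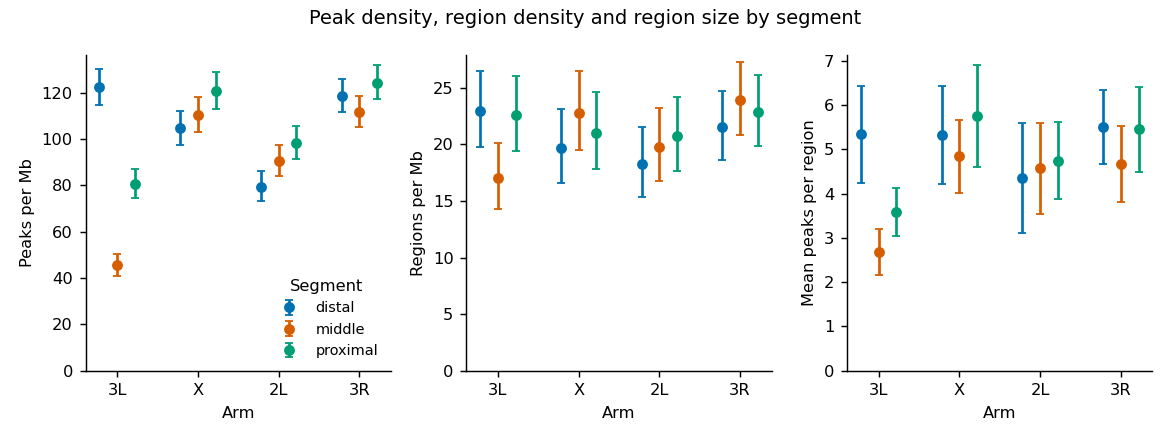
Points give peaks per Mb, regions per Mb and mean peaks per region (regions join peaks within 5 kb) in the distal, middle and proximal segments of 3L, X, 2L and 3R, and bars give 95% intervals. Peak density on 3L falls to 45.6 per Mb in the middle segment, regions per Mb stay between 17.0 and 22.9, and region size runs from 2.68 to 5.33 peaks.

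**Figure D3:**
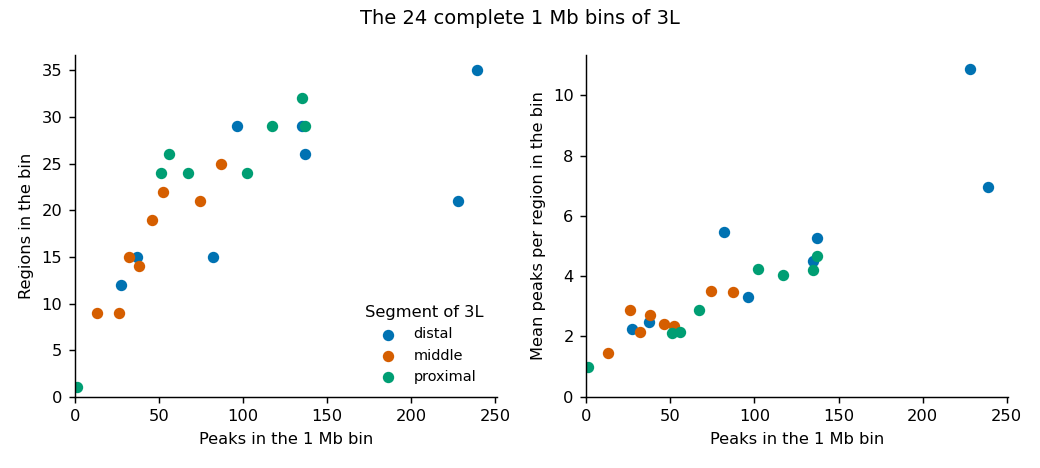
Each point is 1 of the 24 complete 1 Mb bins of 3L, with its peaks on the horizontal axis and, on the vertical axes, its regions (left) and the mean number of peaks in them (right). The bin from 3 to 4 Mb lies highest on the right, at 10.9 peaks per region, and the bin from 23 to 24 Mb lies lowest in both, with 1 peak.

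Close neighbours followed the same order. The shares of close neighbours and short gaps, and those of large groups and lone peaks given below, depend on peak density itself. No values expected from density alone were computed, so whether grouping exceeded them was not tested. The distance to the next peak, taken between midpoints, was 5 kb or less for 79.9% of peaks in the distal segment (77.3 to 82.4), 61.4% in the middle (56.2 to 66.3) and 70.9% in the proximal (67.3 to 74.4). The median distance to the next peak was 1743 bp, 2828.5 bp and 2099 bp in that order. On the other arms the share was 75.6 to 80.0% in every segment, so the distal segment of 3L lay within that range and the middle and proximal segments below it. For all of 3L the share was 73.6% (71.6 to 75.5), against 78.7% on X, 76.4% on 2L and 78.8% on 3R. The lower quartile of this distance, which takes in the width of the peaks, was 999.5 bp in the distal segment, 1139 bp in the middle and 1107 bp in the proximal, and the upper quartile 3733, 12943 and 6579 bp. Between facing edges, the next peak was less than 500 bp away for 404 peaks of the distal segment (40.7%), 87 of the middle (23.5%) and 210 of the proximal (32.1%). Short gaps were thus the most frequent in the distal and the least frequent in the middle segment.

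Large groups were rare in the middle of the arm. The distal segment held 30 regions of 10 or more peaks, with 548 peaks (55.2% of its peaks), the proximal segment 16 with 206 (31.5%) and the middle segment 3 with 51 (13.8%). On X, 2L and 3R such regions held 45.5 to 56.3% of the peaks of every segment. Regions of 20 or more peaks numbered 8 in the distal segment of 3L and 1 in each of the others, 10 in all with 304 peaks, or 15.1% of the peaks of 3L against 23.5% on the other arms together.

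Peaks that stood alone were in turn most frequent in the middle. They made up 18.6% of the peaks there (14.8 to 23), 11.6% in the proximal segment (9.25 to 14.3) and 5.85% in the distal segment (4.47 to 7.49). As counts they differed less, 69 in the middle, 76 in the proximal and 58 in the distal segment. Over the arm 203 peaks stood alone, 10.1% (8.79 to 11.5), compared with 6.06% on X, 8.61% on 2L and 6.10% on 3R.

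**Figure D4:**
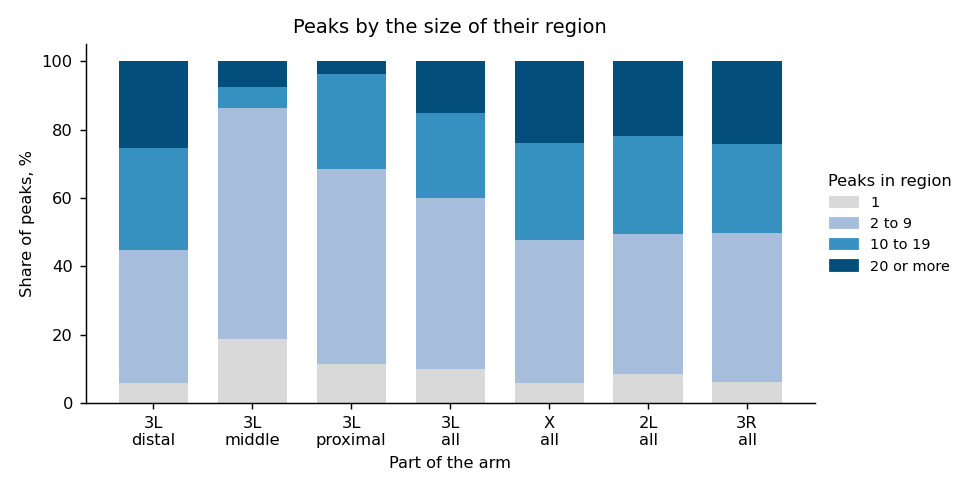
Stacked bars give the share of peaks that lay in regions of 1, 2 to 9, 10 to 19 and 20 or more peaks, for the segments of 3L and for whole arms. In the middle segment of 3L, 86.2% of peaks lie in regions of fewer than 10, and in the distal segment 44.8% do.

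Peaks of the middle segment were also weaker and narrower. Median score was 15.6 in the distal segment (15.1 to 16.3), 13.5 in the middle (12.5 to 14.2) and 15.0 in the proximal (14.0 to 15.8), and the upper quartile was 23.8, 18.3 and 23. Median width was 486 bp in the distal segment (457 to 533), 385.5 bp in the middle (358 to 423) and 470 bp in the proximal (441 to 510). The intervals of the middle segment did not overlap those of the distal segment in either measure. Those of the middle and proximal segments did not overlap in width and met in score, where their bounds were 14.2 and 14.0. Of the segments of the other arms, the distal segment of 2L had the lowest median score, 14.2 (13.7 to 15.3), and the lowest median width, 467 bp (428 to 502). For all of 3L the median width was 459 bp (441 to 482) and the median score 15.0 (14.5 to 15.4). The corresponding values were 556 bp and 16.3 on X, 502 bp and 16.1 on 2L, and 539 bp and 15.5 on 3R.

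The deficit of the middle segment was smallest in the lowest score class and largest in the highest. When peaks were sorted by the quartiles of score over all main arms (11.3, 15.8 and 24.3), the middle segment held 140 peaks of the lowest class against 243 in the distal segment, a ratio of 0.58 (0.46 to 0.71). The ratio was 0.35 in the second class (0.28 to 0.45), 0.32 in the third (0.25 to 0.42) and 0.24 in the highest, with 57 against 238 peaks (0.18 to 0.32). Thus 37.8% of the peaks of the middle segment were in the lowest class (32.9 to 43.0) and 15.4% in the highest (11.9 to 19.5). The distal segment was split nearly evenly, with 24.5% in the lowest and 24% in the highest. The proximal segment had 0.78, 0.62, 0.63 and 0.61 times as many peaks as the distal segment in the 4 classes. On X, 2L and 3R the ratio of the middle to the distal segment lay between 0.83 and 1.57 in every class.

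The deficit was present among the strongest peaks too. Scores above 50 were given to 58 peaks of the distal segment, or 7.15 per Mb (5.43 to 9.24), 19 of the middle, or 2.34 per Mb (1.41 to 3.66), and 34 of the proximal, or 4.19 per Mb (2.90 to 5.86). As shares, scores above 50 were given to 5.85% of the peaks of the distal segment (4.47 to 7.49), 5.14% of the middle (3.12 to 7.90) and 5.19% of the proximal (3.62 to 7.18), shares that did not differ beyond counting error. Scores above 100 were given to 6 peaks of the distal, 3 of the middle and 11 of the proximal segment. Per Mb these were 0.74 (0.27 to 1.61), 0.37 (0.076 to 1.08) and 1.36 (0.68 to 2.43), with intervals that overlapped.

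Within score classes, width differed most among strong peaks. In the lowest score class the median width was 273 bp in the distal segment, 274.5 bp in the middle and 278 bp in the proximal. In the second class it was 347 bp (322 to 371), 374 bp (336 to 443) and 405.5 bp (364 to 458). In the third class it was 681 bp (622 to 731), 610.5 bp (514 to 683) and 716 bp (569 to 838). Median scores in the third class were 19.5, 18.0 and 19.1, lowest in the middle segment. In the highest class it was 1427 bp in the distal segment (1203 to 1564), 809 bp in the middle (671 to 904) and 1087.5 bp in the proximal (989 to 1327). Median scores in that class were nearly equal, at 37.3, 37.5 and 35.3. On X, 2L and 3R the median width in the highest class was 1203 to 1597.5 bp in every segment. Spearman's rho of score and width was 0.78 across 992 peaks in the distal segment, 0.68 across 370 in the middle and 0.74 across 655 in the proximal, and both values come from the same peak caller. Peaks wider than 2000 bp numbered 77, 8 and 37 in that order.

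**Figure D5:**
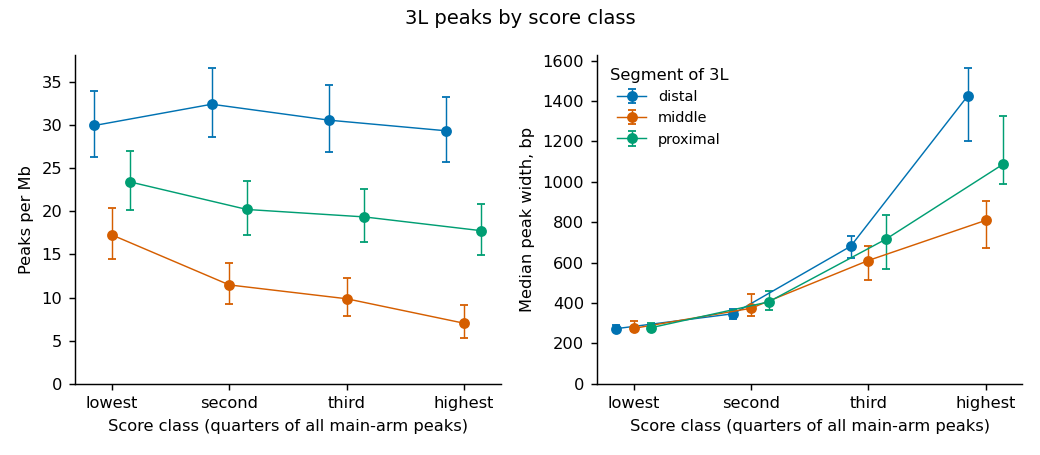
Points give peaks per Mb (left) and median width (right) in 4 score classes cut at the quartiles of all main-arm peaks, for the segments of 3L, with 95% intervals. In the middle segment density falls from 17.3 per Mb in the lowest class to 7.03 in the highest, and the strongest peaks there have a median width of 809 bp against 1427 bp in the distal segment.

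Median scores by group size were ordered differently in the segments, though the proximal intervals overlapped and large regions were few in the middle. Over all of 3L the median score was 18.0 in regions of 20 or more peaks (16.2 to 18.8), 16.9 in regions of 10 to 19 (15.5 to 17.9), 13.5 in regions of 2 to 9 (13 to 14.2) and 14.7 for peaks that stood alone (13.5 to 16.8). The median width was 572, 596, 428 and 379 bp in that order. Scores above 50 were held by 5.42% of the peaks that stood alone on 3L, compared with 18.5% on X, 7.95% on 2L and 6.47% on 3R. In the distal segment the median score was 12.9 for peaks that stood alone (11.6 to 14.7), 13.8 in regions of 2 to 9, 17.9 in regions of 10 to 19 and 17.9 in regions of 20 or more. In the proximal segment the order was not the same, with 18.3 for peaks that stood alone (14.5 to 22.7) and 14.2, 15.7 and 14.0 in the larger classes. In the middle segment it was 13.7 for peaks that stood alone, 12.5 in regions of 2 to 9, 13.5 in the 2 regions of 10 to 19 and 26.7 in the 1 larger region. In the distal segment the median was thus higher in regions of 10 to 19 and of 20 or more than in smaller ones. In the proximal segment the intervals of regions of 2 to 9 (13.5 to 15.0) and of 10 to 19 (14.0 to 17.7) overlapped. Both also overlapped that of the peaks that stood alone there. Its class of 20 or more was 1 region of 24 peaks (11.25 to 20.53).

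The 10 strongest peaks of 3L lay 4 in the distal, 2 in the middle and 4 in the proximal segment. The strongest ran from 21194381 to 21196665 in the proximal segment, was 2285 bp wide and scored 354.3, in a region of 7 peaks. Rank 2, from 5137646 to 5139996 in the distal segment, scored 234.45 in a region of 12. Rank 3, from 20389576 to 20395322, scored 188.24 and was the widest peak of the proximal segment, at 5747 bp, in a region of 24 peaks. Each of these had companions. The strongest lay in the bin from 21 to 22 Mb, whose 135 peaks were close to the 137 of the densest bin of its segment.

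Rank 4 was the strongest of the middle segment. It ran from 10849448 to 10850899, scored 172.01 and had 1 other peak in its region, and it lay in the bin with 13 peaks that was the sparsest of the middle segment. The next in rank were at 22827509 to 22829477 (171.36, proximal), 3417608 to 3419722 (145.97, distal, in a region of 71 peaks) and 5177426 to 5178461 (144.75, distal). Rank 8, from 14747986 to 14751448, scored 135.01 and was the widest of the middle segment at 3463 bp. Ranks 9 and 10 were held by 19610614 to 19612531 (133.21, proximal) and 3192044 to 3193373 (131.69, distal). Of the 10 peaks, 3 lay in regions of 10 or more and 7 in smaller regions.

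Width and score could part. The widest peak of 3L, from 1326630 to 1335416 in the distal segment, spanned 8787 bp and scored 65.7, which is rank 49 on the arm. Among peaks that stood alone, the strongest of the distal segment was at 1586325 to 1587038, 714 bp wide with a score of 99.49. That of the middle segment was at 12392013 to 12394543, 2531 bp wide with a score of 116.79, and that of the proximal segment at 20942184 to 20943767, 1584 bp wide with a score of 103.87 and 14697 bp from the nearest peak. Thus each segment had a peak that stood alone and scored about 100 or more.

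Of the 5 regions with the most peaks, 4 were distal. The largest, from 3354704 to 3472807, held 71 peaks, whose median score was 16.8. It was followed by 2549873 to 2608836 with 32 peaks (39.2% of its length covered by peaks), 1531642 to 1569966 with 30 (60.1% covered), 1295881 to 1351966 with 28 (65.1% covered) and, in the middle segment, 8668406 to 8707127 with 28 (53.0% covered). The region in the middle segment had a median score of 26.7, the highest of the 5, and a highest score of 87.78. It held 28 of the 51 peaks that lay in large groups of the middle segment. The largest region of the proximal segment, from 20362241 to 20403759, held 24 peaks with a median score of 14.0, and its highest peak was the one that scored 188.24. Regions of similar size could thus hold peaks of quite different strength.

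Peak-free stretches longer than 50 kb took up 50.8% of the distal segment, 76.1% of the middle and 57.2% of the proximal. A stretch that crossed a border was counted to the segment of the peak at its low-coordinate end. On the other arms they took up 50.1 to 66.5% of each segment. The longest on 3L ran from 23085602 to 24385597 (1300 kb) in the proximal segment. It was followed by 18107844 to 18611306 (503 kb, proximal), 9892181 to 10318282 (426 kb, middle), 17044671 to 17414288 (370 kb, proximal) and 7428684 to 7797081 (368 kb, distal). Beyond the longest lay 2 peaks, at 24385598 to 24385931 with a score of 42.17 and at 24462346 to 24463107 with a score of 27.87, both above the median of the arm. How well reads could be placed near the centromere is not known here, and its part in the low count there was not tested.

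The borders of the segments fell in sparse stretches. The last peak of the distal segment was at 8180036 to 8180424 (score 9.55) and the first of the middle segment at 8282603 to 8283385 (27.54). The last of the middle segment was at 16157257 to 16157983 (52.54) and the first of the proximal segment at 16380650 to 16381221 (10.19). A shift of either border within these gaps would move no peak between segments.

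Score values themselves were spread unevenly. The caller gave many peaks exactly the same score, and a score was called rare when at most 2 peaks of the main arms held it. Among peaks scoring under 25, rare scores made up 20.4% in the distal segment (17.6 to 23.5), 4.44% in the middle (2.45 to 7.34) and 6.53% in the proximal (4.56 to 9.0). Over whole arms the share was 5.69% on X, 6.61% on 3R and 21.1% on 2L. Counting only peaks with a score held by 3 or more peaks, the distal segment was 2.14 times as dense as the middle (1.88 to 2.44) and the proximal segment 1.72 times (1.50 to 1.98). The share was highest in the densest segment of 3L, and its part in the result was not tested beyond that recount.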

How the data were processed

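ChIP-seq for Insv in Kc167 cells gave 3 ChIP and 3 input samples. The submitters' processing notes name MACS2, BWA, CASAVA (1.7.0.2, 1.7.0.3) and build BDGP5. Per the file headers, MACS made the list and coordinates are FlyBase release 5. The deposited score of each peak is the authors' own. Not given in the sources used here are its scale, the peak threshold, the use of the inputs and the pooling of replicates. Values per library were not analysed here, so depth and its precision are unknown.

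The 2017 peaks of 3L, and those of X, 2L and 3R, were analysed with pandas 2.3.3, scipy 1.17.1, numpy 2.4.6 and matplotlib 3.10.9 under Python 3.11.15. The span of an arm is bounded by its outermost peaks. Score classes used quartiles of the 12693 main-arm peaks, which leave out 323 peaks on scaffolds. Calculations were checked on simulated data. Coverage of the intervals was checked there only for peaks placed independently, not for peaks in groups. Peaks named are the 10 strongest of 3L, the strongest, the widest and the strongest lone peak of each segment, and those beside the borders. The 5 largest regions, the largest of each segment, the 5 longest peak-free stretches and the densest and sparsest bins are named too. Members, lists and this rule were chosen with earlier results of these data known. Alternatives were other spans, borders, joining distances and subsets of peaks. No genome or annotation of release 5 was used here, so no sequence, gene or motif is given.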

Additional observations from a re-analysis of the deposited data

Results flagged for a closer look

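The heterochromatic scaffold 3LHet carried 8 peaks, between 74309 and 2513928, and was flagged because it belongs to none of the comparisons. Their scores ran from 14.3 to 49.6 with a median of 22.6, and their widths from 235 to 722 bp with a median of 419 bp.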

How the results depend on the processing

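Of 50 values recomputed for 10 results, 19 stayed within the 95% interval of the reported value, 31 moved out of it and 0 turned direction. Only the density ratios could turn direction by the rule used, so that count of 0 says nothing about the other results. Among the strongest 50% of peaks the density of 3L was 38.6 per Mb, the distal-to-middle ratio 3.46, the proximal-to-middle ratio 2.15 and the ratio of 3L to X, 2L and 3R 0.70. Median width was then 841.5 bp, median score 23.5, the close-neighbour share 55.6%, peaks per region 2.51 and rho 0.51. With peaks within 5 kb merged, these were 20.8 per Mb, 1.35, 1.33, 0.98, 2032 bp and a score of 20.6. With spans that stop at the longest proximal gap, 3L had 87.8 peaks per Mb and a ratio of 0.81 to the other arms. Distances of 2, 10 and 20 kb gave close-neighbour shares of 50.3, 82.1 and 88.2% and 2.64, 5.85 and 8.62 peaks per region. Added after seeing the data, leaving out 3L ahead of 4 Mb gave 62.5 per Mb, a distal-to-middle ratio of 1.31, a ratio of 0.58 to the other arms, 440 bp, a score of 14.2, a share of 68.1% and 3.23 peaks per region. Peaks with shared scores gave a distal-to-middle ratio of 2.14. Subsets and merging change what is counted, and for the other moves the cause was not tested. Segments of whole bins, spans from position 1, leaving out the largest region or the peaks that stand alone, and 500 kb bins kept their values within the interval. No paired analysis was possible because single libraries have no values in the list. Unknown depth limits which weak peaks were called.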

Other observations

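The blocks in this paragraph were picked after the bins had been seen, so their densities are descriptions. The first 4 Mb of 3L held 739 peaks, 36.6% of the arm, with 135, 239, 137 and 228 in its 4 bins and a density of 185 per Mb (172 to 199). The next 4 Mb, also in the distal segment, held 242 peaks or 60.5 per Mb (53.1 to 68.6). From 6 to 19 Mb no bin held more than 87 peaks, and the density was 46.6 per Mb (43.0 to 50.5). From 19 to 23 Mb it was 123 per Mb (112 to 134), with bins of 102 to 137 peaks. Regions per Mb were 27.8 in the first 4 Mb (22.8 to 33.4) and 28.5 from 19 to 23 Mb (23.5 to 34.2), while a region held a mean of 6.66 peaks in the former (4.95 to 8.36) and 4.29 in the latter (3.51 to 5.07). The dense blocks thus had about as many places with peaks and differed in the size of the groups. From 6 to 19 Mb there were 18.1 regions per Mb (15.8 to 20.5) with a mean of 2.59 peaks (2.23 to 2.94).

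Scores above 100 were held by 4 of the 739 peaks of the first 4 Mb and 8 of the 491 peaks from 19 to 23 Mb. These counts are small, and no interval was computed for them. From 6 to 19 Mb, 6 of 606 peaks scored above 100.

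The rare scores of the distal segment lay mostly in its first 4 Mb. Among peaks scoring under 25, they made up 27.3% in the first 4 Mb (23.6 to 31.3), 2.53% from 4 to 8 Mb (0.82 to 5.79), 3.5% from 6 to 19 Mb (2.08 to 5.47) and 7.97% from 19 to 23 Mb (5.48 to 11.1). In regions of 10 or more peaks the share was 37.1% in the first 4 Mb (31.9 to 42.5), 1.82% of 55 peaks from 4 to 8 Mb (0.046 to 9.72) and 9.40% from 19 to 23 Mb (5.23 to 15.3). In regions of 2 to 9 peaks it was 11.1% in the first 4 Mb (6.97 to 16.4) and 0.86% from 4 to 8 Mb (0.022 to 4.71).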
